A study of Homo sapiens with 18 samples.

Results

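The comparison sets 3 arrays of KMS11 cells that received the F1177A form of MMSET II against 3 arrays of the same cells that received the wild-type form. Its members are the probes of the deposited table detected (detection p-value under 0.01) on 3 or more of these 6 arrays, which holds for 11959 of 48803 probes. With the brightest probe taken for each gene symbol, they gave 9910 features, 8224 named genes and 1686 probes without a single symbol. KMS11 is a human multiple myeloma line with the t(4;14) translocation. The 6 arrays belong to 12 arrays of a repletion system, in which MMSET knock-out KMS11 cells were infected with a retrovirus. The retrovirus carried DSRed (the control without MMSET), wild-type MMSET II, the F1177A mutant that the labels call active, or the Y1118A mutant that they call inactive, with 3 arrays each. All these groups thus share the MMSET knock-out, the retroviral infection and 1 cell line, and the labels do not say whether the knock-out cells are 1 clone. Nor do they say whether the triplicates of a group were grown apart, and the p-values here cover only the spread between arrays, which may be technical.

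MMSET, gene symbol NSD2, is a histone methyltransferase that places methyl groups on lysine 36 of histone H3, a mark found over the bodies of transcribed genes. The t(4;14) translocation puts NSD2 and its neighbour FGFR3, a receptor tyrosine kinase, under immunoglobulin control in plasma cells. MMSET II is the long form of the protein, and its SET domain carries the catalytic activity. The comparison asks how RNA levels differ between cells that hold an altered but active enzyme and cells that hold the wild-type one.

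The NSD2 probes told neither the constructs apart nor cells with a construct from DSRed cells. Of 4 NSD2 probes, 1 was detected, on all 18 arrays of the series. It read 5.42, 5.68 and 5.79 (log2) on the wild-type arrays and 5.92, 5.62 and 5.77 on the F1177A arrays, and the groups overlapped. The difference of 0.14 (SE 0.13) did not pass the test (limma, adjusted p = 0.416) and turned to -0.31 with the arrays scaled to a common median. The same probe read 5.66 with DSRed, which carries no MMSET construct, and 5.80 with Y1118A (group means). The wild type differed from DSRed by -0.030 (limma, adjusted p = 0.8875), so the level of construct RNA is not known from this probe. The arrays carry the plasma cell signature of their label in part: 9 of 12 defining plasma cell markers were detected on at least 3 of the 6 arrays. The plasma cell marker SDC1 was detected on only 1 of the 6 arrays (4.92 with the wild type and 4.97 with F1177A), and CD38 and SLAMF7 on none. Markers of earlier B cells (MS4A1, PAX5 and CD22) were detected on none of the 6 arrays.

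The groups differed in array brightness, taken as the 95th percentile of the intensities of an array. Brightness was 889.5, 775.6 and 621.9 on the wild-type arrays and 493.1, 368.5 and 380 on the F1177A arrays. Every wild-type array was brighter than every F1177A array, a log2 difference of -0.88 (exact permutation test, two-sided p = 0.1, the smallest that 3 against 3 arrays allow). Quantile normalisation, used here, gives all arrays 1 distribution and removes such a difference, so a feature counts as higher or lower relative to the other features of its array. With each array only scaled to a common median, the median difference of all features was -0.61 instead of -0.013. Brightness was not separable from the construct, and its part in the results was not tested. Counts of calls are therefore also given with median scaling and, for most gene lists, with brightness as a covariate of the model. A named gene that passed the test carries its covariate value where the covariate ended its call or moved its difference by more than 1.5 times. The NSD2 difference, which did not pass, was 0.068 with the covariate.

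RNA levels differed widely between the constructs. Of the 9910 features, 4062 (41%) passed the test at an adjusted p under 0.05, 2001 of them higher with F1177A (20.2%) and 2061 lower (20.8%). Calls of at least 2-fold were fewer, 287 features (2.9%), of which 181 were higher (1.83%) and 106 lower (1.07%). The 2-fold count was 1719 with median scaling and 117 with an offset of 50 in place of 16. With median scaling 6150 features were called, 181 higher and 5969 lower, so 2.94% of the calls were higher, against 49.3% in the quantile-normalised values. With brightness as a covariate 2474 were called, 1244 higher and 1230 lower. The shares of 20.2% and 20.8%, and these counts under the other treatments, are the background for each list below. Of the 4062 calls, 2242 were called in the same direction with median scaling and 1870 with the covariate. The median SD among 3 arrays was 0.10 (log2) with F1177A and 0.11 with the wild type, and the 5th and 95th percentiles of the difference were -0.70 and 0.72.

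The other repletion comparisons, which share arrays with this one, gave between 1924 and 3781 calls. Wild-type MMSET II against the inactive Y1118A gave 1924 calls over the same 9910 features (19.4%), and F1177A against Y1118A gave 3781 (38.2%). Against DSRed, the wild type gave 3436 calls (34.7%), Y1118A 2931 (29.6%) and F1177A 2120 (21.4%). DSRed replicate 3 was brighter than the other 2 (95th percentile 1033 against 491.4 and 453.5). Without it, wild type against F1177A gave 4484 calls, since the arrays share 1 estimate of the spread. The Y1118A arrays, at 765.7, 746.5 and 775, lay within the brightness range of the wild-type arrays. Calls were fewest for wild type against Y1118A and for F1177A against DSRed, pairs of like brightness apart from DSRed replicate 3. The part of brightness in these counts was not tested, so they do not rank the constructs by likeness.

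**Figure D1:**
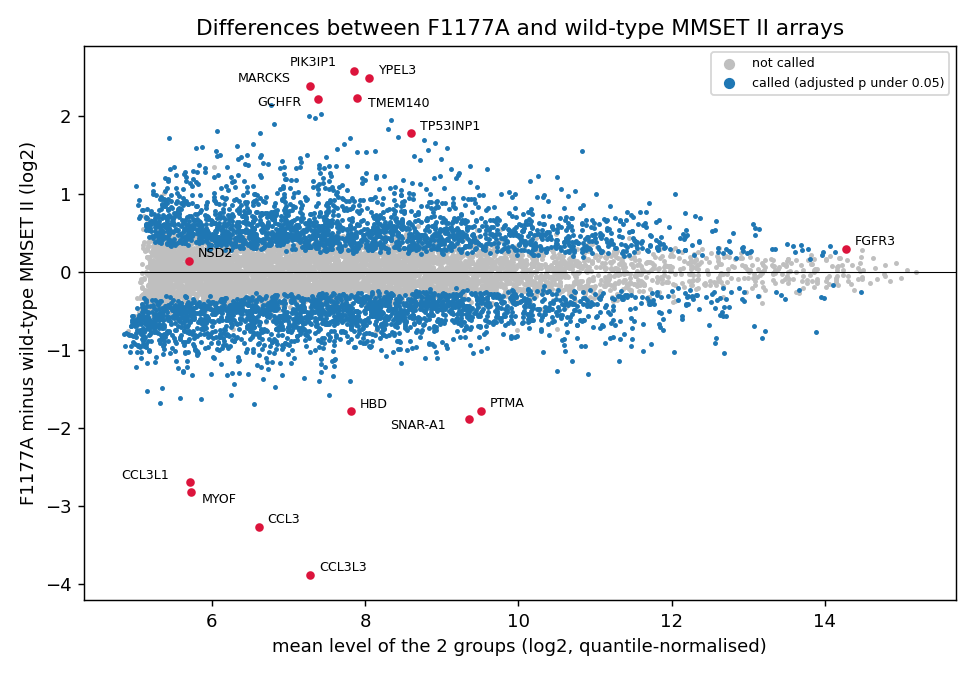
Each point is 1 of the 9910 measured features, with the mean level of both groups on the x axis (log2) and F1177A minus wild-type MMSET II on the y axis (log2, quantile-normalised values); blue points passed the test and red points are genes named in the text. CCL3L3, CCL3, MYOF and CCL3L1 lie farthest below 0, and PIK3IP1, YPEL3 and MARCKS farthest above it.

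The largest falls were in the CCL3 chemokine genes. CCL3 (macrophage inflammatory protein 1 alpha) is a chemokine of myeloma cells that is known to drive bone resorption, and CCL3L1 and CCL3L3 are near-identical copies of it on chromosome 17. The probes of these copies moved together, and transcripts of 1 copy can bind the probe of another. The 250 bases before the transcription start of CCL3 and CCL3L3, from RefSeq on GRCh38.p14, are shown for the likeness of the copies upstream. These bases lie outside the transcript, so they do not bear on which probe a transcript binds. The CCL3 window is chr17:36090144-36090393 and the CCL3L3 window chr17:36196759-36197008, both on the minus strand. Capitals mark the bases at which the 2 windows differ in a global alignment.
CCL3: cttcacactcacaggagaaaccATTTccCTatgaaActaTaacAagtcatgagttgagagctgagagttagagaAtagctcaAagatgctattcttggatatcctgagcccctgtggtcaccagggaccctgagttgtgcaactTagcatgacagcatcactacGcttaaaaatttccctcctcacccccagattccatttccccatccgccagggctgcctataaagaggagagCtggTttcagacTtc
CCL3L3: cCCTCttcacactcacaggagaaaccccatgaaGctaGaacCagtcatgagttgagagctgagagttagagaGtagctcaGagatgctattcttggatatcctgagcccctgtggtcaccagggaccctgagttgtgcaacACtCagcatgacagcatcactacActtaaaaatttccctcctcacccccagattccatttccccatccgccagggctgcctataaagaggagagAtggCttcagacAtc
The aligned windows are identical at 234 of 256 positions (91.4%), with 10 substitutions and 12 gapped positions.

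CCL3L3 read 9.18, 9.34 and 9.17 (log2) on the wild-type arrays and 5.07, 5.48 and 5.47 on the F1177A arrays. The F1177A values lay close to those of the inactive mutant (5.59 ± 0.12, mean ± SD, n = 3) and below DSRed (6.70 ± 0.10). The fall was 14.8-fold (log2 difference -3.89, SE 0.15, adjusted p = 1.53e-12), and the second CCL3L3 probe gave -2.43 (adjusted p = 3.15e-08). CCL3 read 8.15, 8.25 and 8.34 with the wild type and was detected on 0 of 3 F1177A arrays (4.83, 4.95 and 5.14), at least 7.72-fold lower (adjusted p = 1.13e-11). CCL3L1 went from 7.06 ± 0.059 to an undetected 4.36 ± 0.041, at least 3.39-fold lower (adjusted p = 8.37e-10), while a second CCL3L1 probe was near background in both groups. With Y1118A, CCL3L3 was detected on 3 arrays, 3.63 below the wild type, and CCL3 on 1 array. Of the 5 measured genes of a chemokine and chemokine receptor list, which does not hold CCL3L3, CCL3 and CCL3L1 were the 2 called, both lower, and CCL5, another chemokine, did not pass the test.

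Several genes fell from a detected level to background. MYOF encodes myoferlin, a membrane repair protein. It read 7.01, 7.28 and 7.13 with the wild type and 4.28, 4.33 and 4.35 with F1177A, where no array detected it, at least 3.58-fold lower (adjusted p = 4.28e-12). With Y1118A it read 7.22 ± 0.13, and the wild type differed from that by -0.081 (adjusted p = 0.71), while DSRed read 4.53 ± 0.20. PRKCB, protein kinase C beta, fell at least 2.6-fold from 6.79, 6.59 and 6.65 (adjusted p = 1.23e-08). TGFA, a ligand of the EGF receptor, fell at least 1.81-fold from 6.35, 6.29 and 5.83 (adjusted p = 1.65e-05), and its second probe gave -1.04. PRKCB and TGFA were detected on no F1177A array and on no Y1118A array. SFPQ, a splicing factor, fell at least 2.14-fold (adjusted p = 6.98e-05), with a wider spread on the F1177A arrays (5.23, 4.59 and 4.50), and its difference of -1.62 was -0.93 with brightness as a covariate.

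The other large falls kept a detected level. SNAR-A1, a small non-coding RNA of a multicopy family whose copies the probe may share, read 10.39, 10.21 and 10.31 with the wild type and 8.48, 8.25 and 8.53 with F1177A (log2 difference -1.88, SE 0.20, adjusted p = 1.33e-06). CHN1, a Rac GTPase-activating protein, fell 3.24-fold (-1.70, adjusted p = 4.16e-07) and PTMA, prothymosin alpha, a gene with many processed copies, fell 3.44-fold (-1.78, adjusted p = 0.000323). With brightness as a covariate the PTMA difference shrank to -0.58 (adjusted p = 0.0116). CYP26A1, which degrades retinoic acid, read 7.04 ± 0.071 with the wild type and was detected on 2 of 3 F1177A arrays (5.45 ± 0.29, adjusted p = 4.97e-06). HBD, the delta globin gene, read 8.63, 8.72 and 8.79 with the wild type and 6.99, 6.91 and 6.87 with F1177A (-1.79, adjusted p = 4.26e-07). HBD is also a marker of red cells, and it was the only 1 of 11 erythroid and platelet markers with a probe that was detected, the summed intensity of the list, not normalised, being 474.7 to 619 with the wild type and 65.9 to 104.3 with F1177A. HBA1, HBB, ALAS2 and PPBP were detected on none of the 6 arrays.

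**Figure D2:**
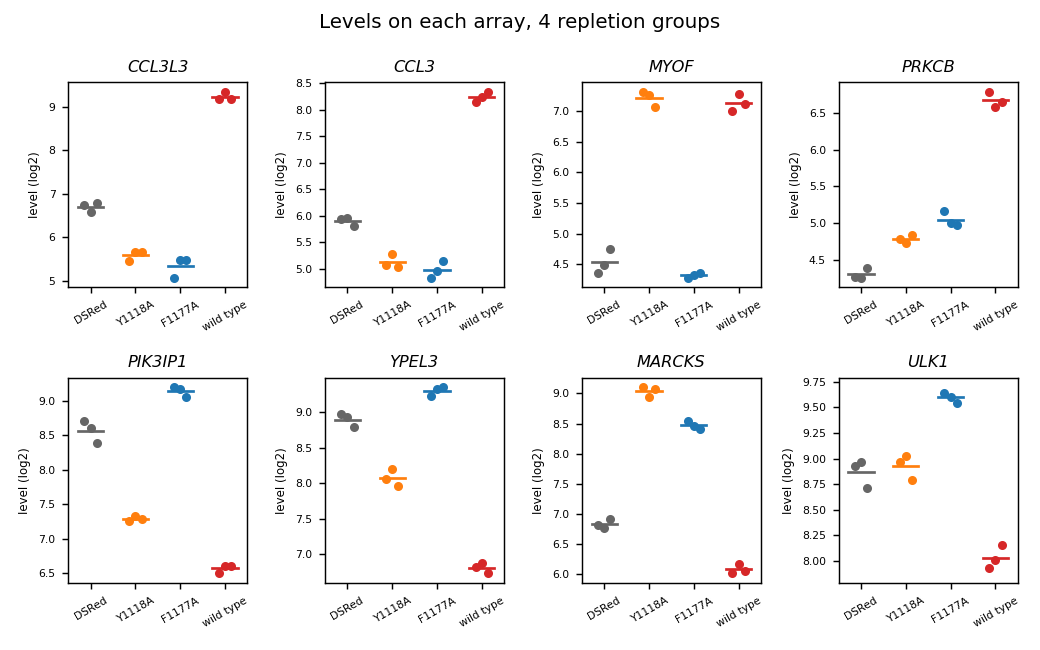
Levels (log2, quantile-normalised) of 8 genes on each array of the DSRed, Y1118A, F1177A and wild-type groups, 1 point per array and a line at the group mean (n = 3). CCL3L3, CCL3 and PRKCB were high with the wild type and low in the other groups, MYOF was high with the wild type and Y1118A, and PIK3IP1, YPEL3 and ULK1 were highest with F1177A.

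PIK3IP1, YPEL3 and MARCKS had the largest rises with F1177A. PIK3IP1 encodes a membrane protein that inhibits PI3 kinase. It read 6.49, 6.61 and 6.61 (log2) with the wild type and 9.20, 9.18 and 9.06 with F1177A, 5.97-fold higher (log2 difference 2.58, SE 0.13, adjusted p = 4.62e-11). YPEL3, a growth-suppressing yippee-like protein, read 6.82, 6.87 and 6.73 and 9.22, 9.34 and 9.35, 5.64-fold higher (SE 0.12, adjusted p = 1.13e-11). For both genes F1177A lay above DSRed as well (0.57 and 0.40, adjusted p = 0.00376 and 0.0169) and well above Y1118A (1.86 and 1.23). MARCKS, a protein kinase C substrate that tethers actin to the membrane, read 6.01, 6.17 and 6.06 with the wild type and 8.54, 8.46 and 8.41 with F1177A, 5.24-fold higher (adjusted p = 3.33e-12). MARCKS was higher still with Y1118A (9.04 ± 0.083) and lower with DSRed (6.83 ± 0.077). TP53INP1, a p53 target that promotes autophagy, rose 3.44-fold (1.78, adjusted p = 1.33e-09), and its second probe gave 2.16.

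The rest of the 12 largest rises lay between 1.74 and 2.23 on the log2 scale, with no overlap of arrays. TMEM140 rose 4.69-fold, CALCOCO1, a receptor of selective autophagy, 4.4-fold, and PBXIP1 4.1-fold. MXD3, a partner of MAX that opposes MYC at shared sites, rose 4-fold, RIPOR1 3.94-fold, TMEM74B 3.56-fold and SUSD3 3.33-fold. These 7 rises had adjusted p-values between 1.42e-08 and 1.1e-06. The 12 rises and 12 falls kept their direction and passed the test in each of the 26 or 27 alternatives run, median scaling and the brightness covariate included, though the covariate made the falls of PTMA and SFPQ smaller as given above.

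Of 21 measured genes of a list of PI3K brakes and FOXO-type quiescence genes, 15 rose and 0 fell, against 20.2% and 20.8% of all features. The list was written with earlier results of these data known and holds PIK3IP1 and YPEL3, which led the rises above. Its counts are therefore a description and no independent support. The median difference of the list was 0.63, and relative to all features it was 0.64 with quantile normalisation, 0.62 with median scaling and 0.72 with brightness as a covariate. Counts followed the scaling: 2 were higher and 4 lower with median scaling, and 14 were higher and 0 lower with brightness as a covariate. FOXO factors are the transcription factors that PI3K and AKT signalling keeps out of the nucleus, and several genes of the list are their targets. CCNG2, a cyclin of resting cells, read 5.84, 5.54 and 5.74 with the wild type and 6.66, 6.55 and 6.77 with F1177A (0.96, adjusted p = 0.000625). YPEL5 rose by 0.95 (adjusted p = 7.39e-06). The other 11 genes of the list that passed, given to complete it, were PHLPP1, a phosphatase of AKT (0.87), SESN1, a brake on mTORC1 (0.71), TXNIP, which limits glucose uptake (0.69), KLF2 (0.67), GABARAPL1 (0.67), IRS2 (0.63), FOXO4 (0.63), RBL2 (0.56), PINK1 (0.49), FOXO3 (0.46) and CDKN1B, the inhibitor p27 (0.45). With median scaling KLF2, FOXO3, RBL2 and CDKN1B turned below 0 (between -0.25 and -0.034), that is, they lay below 0 but above the median of all features on that scale (-0.61). A second CDKN1B probe gave 0.10 (adjusted p = 0.573). CDKN1B and PINK1 lost their calls with the covariate (0.37, adjusted p = 0.0809, and 0.14, adjusted p = 0.664), where KLF2 was 1.09 and FOXO3 0.29. The PINK1 call was also lost without any 1 of 5 arrays (all but F1177A replicate 3), and that of GABARAPL1 without wild-type replicate 2.

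Lysosome and autophagy genes were called higher more often than lower. Of 30 measured, 14 rose and 3 fell, against 20.2% and 20.8% of all features. Relative to all features their median stood at 0.31 (0.22 with median scaling). Of the 30, 1 was higher and 10 lower with median scaling, and 11 were higher and 4 lower with brightness as a covariate. ULK1, the kinase that starts autophagy, read 7.93, 8.01 and 8.15 with the wild type and 9.64, 9.60 and 9.54 with F1177A (log2 difference 1.56, SE 0.11, adjusted p = 1.03e-08), and its second probe gave 1.54. WIPI1, which binds the early autophagosome membrane, rose by 0.85 (adjusted p = 0.00468) and CTSB, the lysosomal protease cathepsin B, by 0.83 (adjusted p = 1.51e-05). Some lysosome genes carry the E-box CACGTG, the core of the site bound by TFEB and related factors, in their promoters. In the 250 bases before the start, 6 of 26 measured genes of the list with a RefSeq promoter held it (23.1%), against 9.83% of 6877 measured genes. The 2 called genes among the 6, chosen after their values were seen, fell: LAMP1, a lysosomal membrane protein (-0.34, adjusted p = 0.0166), and NEU1, a sialidase (-0.36, adjusted p = 0.00447). The LAMP1 call was lost without F1177A replicate 1, without wild-type replicate 2, without the filter on dim probes and with the covariate and the replicate block together. Their windows, chr13:113296989-113297238 on the plus strand and chr6:31862822-31863071 on the minus strand of GRCh38.p14 (RefSeq), are shown with the E-boxes in capitals because these members were called lower in a list with more rises than falls.
LAMP1: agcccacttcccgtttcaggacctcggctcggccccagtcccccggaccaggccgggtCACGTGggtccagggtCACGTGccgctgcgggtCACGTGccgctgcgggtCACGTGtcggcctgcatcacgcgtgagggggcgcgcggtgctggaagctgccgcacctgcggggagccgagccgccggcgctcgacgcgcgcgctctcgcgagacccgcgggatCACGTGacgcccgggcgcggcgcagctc
NEU1: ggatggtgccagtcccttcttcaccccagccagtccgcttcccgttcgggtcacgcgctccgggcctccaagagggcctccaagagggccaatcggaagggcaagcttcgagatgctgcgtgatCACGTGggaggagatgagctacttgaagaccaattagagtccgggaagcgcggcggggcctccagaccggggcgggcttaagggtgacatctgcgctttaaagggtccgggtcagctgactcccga

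Genes that answered to wild-type MMSET II were taken as the 8 largest rises and 8 largest falls of the wild type against DSRed. They share the wild-type arrays with the present comparison, so their differences from F1177A are given as a description beside each group's level. Among the 8 rises, F1177A stood near the wild type for several. S100A10, a calcium-binding partner of annexin A2, read 6.74 ± 0.097 with DSRed, 8.58 ± 0.10 with Y1118A, 10.41 ± 0.089 with F1177A and 10.82 ± 0.069 with the wild type. F1177A exceeded Y1118A by 1.83 (adjusted p = 1.02e-06) and differed from the wild type by -0.42 (adjusted p = 0.0861), while a second, dimmer S100A10 probe gave -0.49 and passed the test (adjusted p = 0.00828). GALNT18, a glycosyltransferase, CA2, carbonic anhydrase, and PLOD2, a collagen lysyl hydroxylase, had F1177A levels of 7.48, 7.49 and 7.36 against 7.65, 7.40 and 7.16 with the wild type, 5.55, 6.07 and 5.54 with Y1118A and 4.55, 4.41 and 4.41 with DSRed. F1177A exceeded Y1118A for each of these 3 genes by 1.42 to 1.93 (adjusted p at most 9.49e-07). HERC5, an ISG15 ligase, read 8.87, 8.87 and 8.97 with F1177A, Y1118A and the wild type and 6.26 with DSRed. For these 5 genes the difference between F1177A and the wild type had an SE of 0.12 to 0.19, and a missed threshold does not show equal levels. With brightness as a covariate the differences of CA2 and PLOD2 from the wild type went from 0.095 and 0.20 to 0.24 and 0.40, and neither passed.

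For others F1177A fell between the inactive and the wild-type protein. CDH2, N-cadherin, read 5.69 ± 0.22 with DSRed, 6.79 ± 0.091 with Y1118A, 7.58 ± 0.16 with F1177A and 8.54 ± 0.039 with the wild type, and the arrays of the 4 groups did not overlap. Its F1177A level was 1.94-fold below the wild type (-0.96, adjusted p = 0.000128) and 0.79 above Y1118A (adjusted p = 0.000916). RAI14, an actin-binding protein, followed the same order, with F1177A at 6.86 against 7.34 with the wild type and 5.85 with Y1118A. The difference of RAI14 from the wild type (-0.47, adjusted p = 0.00966) lost its call with the covariate (-0.35, adjusted p = 0.156), with centring of the arrays on the median of features detected on all 18 arrays, and without F1177A replicate 2. SNAR-A1 was 1.60 above Y1118A with F1177A and 3.48 above it with the wild type.

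Among the 8 genes lowest with the wild type against DSRed, 5 were high with F1177A. GCHFR, the feedback regulator of the first enzyme of tetrahydrobiopterin synthesis, read 6.11, 6.32 and 6.41 with the wild type and 8.42, 8.52 and 8.56 with F1177A (log2 difference 2.22, SE 0.16, adjusted p = 1.03e-08), close to Y1118A (8.31 ± 0.11; difference 0.19, adjusted p = 0.365) and below DSRed (9.03 ± 0.40). CRACR2B, a regulator of store-operated calcium entry, had the same order, at 5.97 with the wild type, 7.37 with F1177A, 7.33 with Y1118A and 8.05 with DSRed. YPEL3, PIK3IP1 and TMEM140 differed from these in that F1177A exceeded Y1118A (by 1.23 to 1.86). ADM, the vasodilator adrenomedullin, was detected on 0 of 3 F1177A arrays and 2 of 3 wild-type arrays, so it is not a member, and it read 8.21 with Y1118A and 7.14 with DSRed. BCHE, butyrylcholinesterase, read 7.44 with F1177A and 7.06 with the wild type, below Y1118A (8.45) and DSRed (8.79). ASS1, argininosuccinate synthase, read 6.36 with F1177A, 5.73 with the wild type and 5.89 with Y1118A, against 7.57 with DSRed. Unlike BCHE, ASS1 was thus also low with the inactive Y1118A (-1.68 relative to DSRed, adjusted p = 4.81e-06). With F1177A, BCHE was -1.35 and ASS1 -1.22 relative to DSRed (adjusted p = 2.4e-08 and 0.00012). Against the wild type, BCHE and ASS1 with F1177A stood at 0.38 and 0.62, calls that were lost with the covariate (0.29, adjusted p = 0.128, and 0.54, adjusted p = 0.131) and without F1177A replicate 1 and wild-type replicate 2, respectively. Their second probes gave 0.18 and 0.18, which did not pass.

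**Figure D3:**
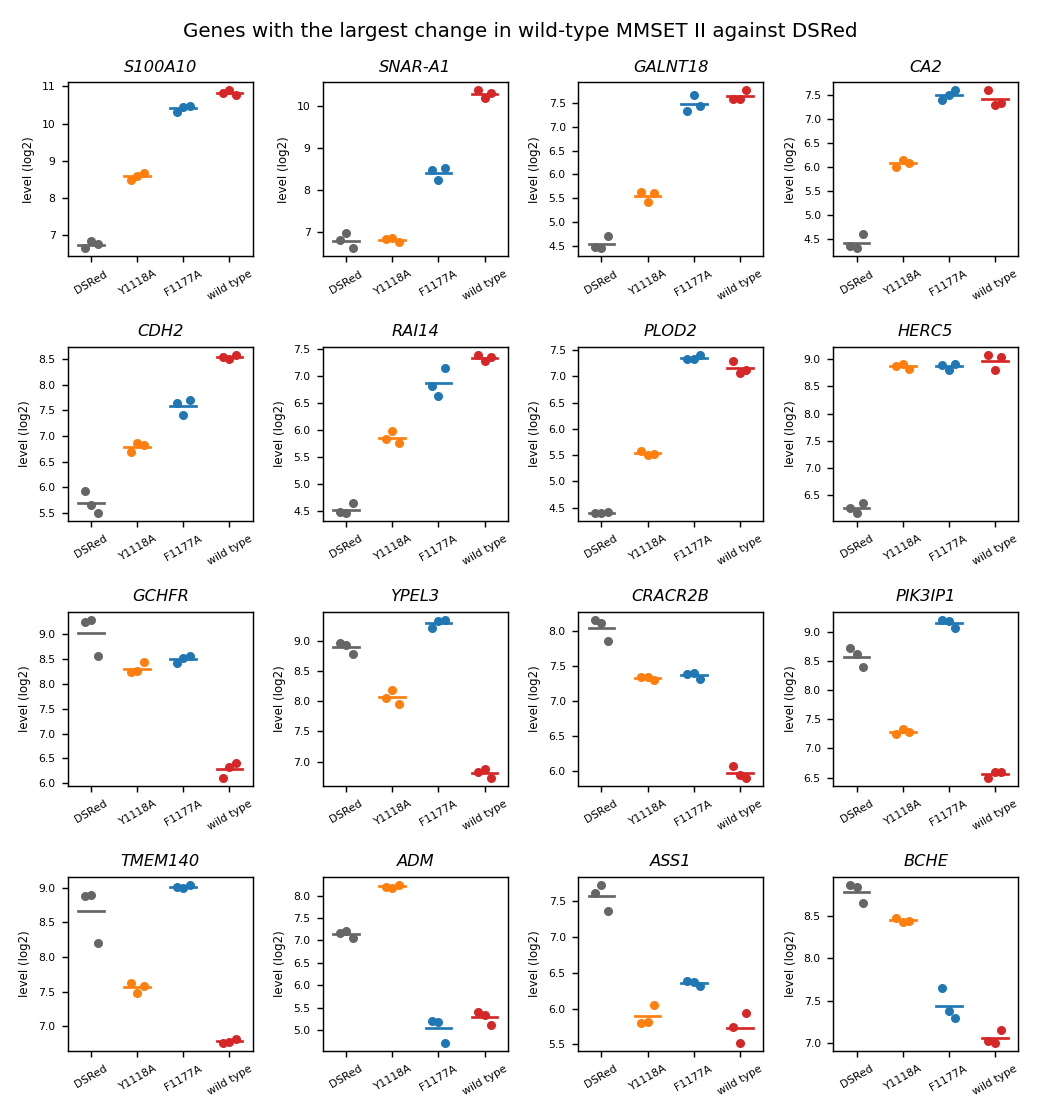
Levels (log2, quantile-normalised) of the 8 genes highest and the 8 lowest in wild-type MMSET II against DSRed, 1 point per array and a line at the group mean (n = 3). F1177A lay beside the wild type for S100A10, GALNT18, CA2, PLOD2, HERC5 and ADM, between Y1118A and the wild type for CDH2, RAI14 and SNAR-A1, and beside or above Y1118A for GCHFR, CRACR2B, YPEL3, PIK3IP1 and TMEM140.

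Genes reported high in t(4;14) myeloma were called lower with F1177A more often than higher: of 10 measured, 5 fell and 1 rose, and relative to all features their median was -0.50 (-0.35 with median scaling, -0.36 with brightness as a covariate). Among features detected on all 18 arrays, 7 genes of the list remained, 3 lower and 1 higher, and their median was -0.0057. With median scaling 9 of the 10 were lower and 0 higher, where 5969 of the 9910 features were lower. CEBPA, a transcription factor of myeloid differentiation, read 8.30, 8.20 and 8.43 with the wild type and 6.77, 6.59 and 6.85 with F1177A, 2.98-fold lower (log2 difference -1.58, SE 0.11, adjusted p = 1.03e-08), near Y1118A (6.57 ± 0.015). JAM3, a junctional adhesion molecule, fell 1.81-fold (-0.86, adjusted p = 0.000168) and CDH2 fell as given above. CCND2, cyclin D2, fell by 0.61 (adjusted p = 0.000109), and its second probe gave -0.66. KLF4 was detected on no F1177A array, at least 1.09-fold lower (adjusted p = 0.00919), a call lost with the covariate (-0.24, adjusted p = 0.413) and with centring (-0.16). The member that rose, named after its values were seen, was TWIST1, a factor of mesenchymal cells (0.58, adjusted p = 0.0038), which turned to -0.13 with median scaling and lost its call with the covariate (0.16, adjusted p = 0.373).

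FGFR3, which can drive ERK signalling, was slightly higher with F1177A, and several ERK targets were lower. FGFR3 read 14.03, 14.15 and 14.21 with the wild type and 14.42, 14.44 and 14.42 with F1177A (0.30, adjusted p = 0.0023), a call that was lost with median scaling (0.13) and with brightness as a covariate (0.18). Of 11 ERK feedback and target genes, 5 fell and 1 rose, against 20.8% and 20.2% of all features, with 10 lower and 0 higher under median scaling and 4 lower and 0 higher with the brightness covariate. Among features detected on all 18 arrays, 6 genes remained, 2 lower and 1 higher, with a median -0.13 relative to all features. Of the 6 compared arrays, MAFF and SPRY4 were detected only on the wild-type ones, so they entered the list through that group. MAFF, a small MAF transcription factor, was detected on no F1177A array and fell at least 1.73-fold (adjusted p = 7.68e-06). ETV4, an ETS factor induced by ERK, fell 1.97-fold (-0.97, adjusted p = 1.43e-05). SPRY4, a feedback inhibitor of the pathway, read 5.34 with the wild type and was undetected with F1177A (adjusted p = 0.00109), a call lost with centring.

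MMP9, IL2RB and WNT10A, each higher with the wild type than with Y1118A and DSRed, were at background with F1177A. MMP9, a matrix protease, read 5.88, 5.95 and 5.91 with the wild type and 4.56, 4.28 and 4.30 with F1177A, at least 1.53-fold lower (adjusted p = 9.12e-08). IL2RB, a receptor chain of interleukins 2 and 15, fell at least 1.25-fold and WNT10A, a Wnt ligand, at least 1.95-fold (adjusted p = 8.76e-06 and 8.82e-06). All 3 were detected on 3 wild-type arrays and on no F1177A array. With Y1118A, MMP9 and IL2RB were detected on no array and WNT10A on 1. Of 12 collagen and matrix genes 7 rose and 2 fell, against 20.2% and 20.8% of all features, with COL9A2 (0.96) and LAMA5, a laminin chain (0.94), among those that rose. Of the 12, 0 were higher and 2 lower with median scaling, and 5 and 2 with the covariate. The 2 that fell were MMP9 and COL6A1. Both were detected on 3 wild-type arrays and on no F1177A array, so they entered the list through the wild-type group. Among features detected on all 18 arrays, 7 genes of the list remained, 6 higher and 0 lower. The COL6A1 call was lost with centring. Of 16 cytokine signalling genes 6 rose and 2 fell (0 and 8 with median scaling, 4 and 2 with the covariate), against 20.2% and 20.8% of all features. PIM1, a survival kinase, rose by 1.08 and IL15RA by 0.87 (0.56 with the covariate). IL2RB, 1 of the 2 that fell, entered this list through the wild-type arrays. Among features detected on all 18 arrays, 13 genes of the list remained, 6 higher and 0 lower.

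Genes of the growth machinery were called lower with F1177A more often than higher. Of 27 MYC and ribosome biogenesis genes, 18 fell and 1 rose, against 20.8% and 20.2% of all features, with a median -0.40 relative to all features (-0.42 with median scaling and -0.39 with brightness as a covariate), and 0 were higher and 25 lower with median scaling, and 1 was higher and 11 lower with brightness as a covariate. NCL, nucleolin, read 12.11, 12.03 and 11.51 with the wild type and 10.84, 10.64 and 10.76 with F1177A (-1.14, adjusted p = 0.00106). NOP56, a core protein of the nucleolar snoRNP, read 11.33, 11.28 and 11.24 and 10.46, 10.24 and 10.32 (log2 difference -0.94, SE 0.11, adjusted p = 3.75e-06), and its second probe gave -1.33. NOP58 fell by 0.88 and ODC1, ornithine decarboxylase, by 0.84 (adjusted p = 0.00434 and 6.48e-05). NCL and NOP58 lost their calls with the covariate (-0.30, adjusted p = 0.148, and -0.14, adjusted p = 0.572). The gene that rose, named after its values were seen, was MYC itself (0.32, adjusted p = 0.0236), and it turned to -0.28 with median scaling. A second MYC probe gave -0.40 (adjusted p = 0.139), and the MYC call was also lost with cyclic loess, without the filter on dim probes, and without F1177A replicate 2, F1177A replicate 3 or wild-type replicate 1.

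Mitochondrial ribosomal proteins gave 19 falls and 0 rises among 35, against 20.8% and 20.2% of all features. Their median was -0.27 relative to all features, -0.33 with median scaling and -0.30 with brightness as a covariate. MRPL1 fell 2.78-fold (-1.48, adjusted p = 0.000264), MRPL19 2.2-fold (-1.14, adjusted p = 4.79e-05) and MRPL3 1.82-fold (-0.87, adjusted p = 0.000789). The covariate ended the MRPL3 call (-0.26, adjusted p = 0.0907) and brought MRPL1 to -0.64 and MRPL19 to -0.69. Median scaling left 34 of them lower and the covariate 15, with 0 higher in each. Of 37 cytosolic ribosomal proteins 12 rose and 3 fell. The share called, 40.5%, lay near the 41% of all features, and the median was 0.054 relative to all features. RPL13A, a gene with many processed copies, had the largest rise (1.22, adjusted p = 5.59e-07). With median scaling 1 of the 37 was higher and 13 were lower, and with brightness as a covariate 6 were higher and 5 lower.

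Most proteasome subunits that passed the test were lower with F1177A. Of 30 measured, 17 fell and 2 rose, against 20.8% and 20.2% of all features (median -0.31 relative to all features, -0.33 with median scaling), and 0 were higher and 27 lower with median scaling, and 1 was higher and 14 lower with brightness as a covariate. PSMD14, the deubiquitinase of the lid, read 9.66, 9.46 and 9.18 with the wild type and 8.46, 8.40 and 8.35 with F1177A (-1.03, adjusted p = 0.000264). PSMA3 of the core fell by 0.96 and PSMD11 of the lid by 0.82 (adjusted p = 0.000435 and 5.55e-05). PSMD14 and PSMA3 were -0.44 and -0.31 with the covariate. The 2 subunits that rose were PSMB8 (0.82, adjusted p = 3.39e-05) and PSMB10 (0.30, adjusted p = 0.0232, named after its values were seen), which replace standard catalytic subunits in the immunoproteasome. PSMB10 turned to -0.32 with median scaling, and its call was lost with the covariate (0.027, adjusted p = 0.86), without the filter on dim probes and without any 1 of F1177A replicates 1 and 3 and wild-type replicates 1 and 2. PSMB8 was 0.54 with the covariate, and its 3 other probes gave 0.31 to 0.56, of which the lowest did not pass. The products of PSMB8 and PSMB10 cut peptides for antigen presentation. Of the genes of that process 12 of 17 rose and 0 fell, against 20.2% and 20.8% of all features, with a median 0.41 relative to all features (0.48 with median scaling and 0.41 with the covariate), and 1 was higher and 2 lower with median scaling, and 8 were higher and 0 lower with brightness as a covariate. HLA-DQB1, a class II chain, read 8.21, 8.20 and 8.47 with the wild type and 9.43, 9.57 and 9.50 with F1177A (log2 difference 1.21, SE 0.17, adjusted p = 3.26e-05). HLA-DMA, which loads peptides onto class II, rose 2.05-fold and TAP1, which carries peptides for class I, 1.65-fold (adjusted p = 2.51e-05 and 8.03e-06). With the covariate HLA-DQB1 was 0.75 and HLA-DMA 0.66. HLA probes can bind transcripts of related HLA genes. Of 14 interferon-stimulated genes 1 rose, IRF1 (0.73, adjusted p = 0.000917; 0.51, adjusted p = 0.0512 with the covariate), and 0 fell.

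Among cytosolic heat shock proteins 10 fell and 4 rose of 20, against 20.8% and 20.2% of all features, with a median -0.23 relative to all features. Of the 20, 1 was higher and 15 lower with median scaling, and 2 were higher and 6 lower with brightness as a covariate. Among features detected on all 18 arrays, 16 genes of the list remained, 9 lower and 3 higher. The constitutive chaperone HSPA8 read 12.19, 12.14 and 12.24 with the wild type and 11.10, 11.40 and 11.30 with F1177A (-0.92, adjusted p = 0.000221) and its partner HSPH1 fell 1.9-fold (-0.93, adjusted p = 5.46e-05). CHORDC1, a cochaperone of HSP90, fell at least 1.86-fold (adjusted p = 3.44e-05). It was detected on 3 wild-type arrays and on no F1177A array, so it entered the list through the wild-type group. HSPA6, a stress-induced member, went the other way, from 5.09, 5.37 and 5.36 to 6.77, 6.88 and 6.83 (1.55, adjusted p = 9.12e-08), with 4.54 for Y1118A and 6.81 for DSRed. Of 24 genes of the unfolded protein response in the endoplasmic reticulum, only SEC61B, a translocon subunit (-0.72, adjusted p = 0.000146), and WFS1 (0.53, adjusted p = 0.0437) were called. The WFS1 call was lost with the replicate number as a block (adjusted p = 0.0544) and in 12 other alternatives, and it turned to -0.18 with median scaling. With the covariate WFS1 was 0.35 (adjusted p = 0.37) and SEC61B -0.40.

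Energy genes moved in both directions, as did all features. The shares called, 50% of glycolysis and hypoxia genes and 44.4% of respiratory chain subunits, lay near the 41% of all features. Of 28 glycolysis and hypoxia genes 6 rose and 8 fell, and 0 were higher and 16 lower with median scaling, and 2 were higher and 8 lower with brightness as a covariate. HK2, the hexokinase that commits glucose to glycolysis, read 8.18, 8.14 and 7.97 with the wild type and 6.95, 6.57 and 6.58 with F1177A (log2 difference -1.40, SE 0.14, adjusted p = 7.66e-07). LDHA, lactate dehydrogenase A, fell 2.03-fold (-1.02, adjusted p = 0.002), a call lost with the brightness covariate (-0.26, adjusted p = 0.311). NDRG1, a stress- and hypoxia-induced gene, rose 2.14-fold (1.10, adjusted p = 8.67e-08) and ALDOC, an aldolase, 1.95-fold (0.96, adjusted p = 0.000605; 0.47, adjusted p = 0.0784 with the covariate). Of 36 nuclear-coded respiratory chain subunits 12 fell and 4 rose (27 and 0 with median scaling, 7 and 1 with the covariate), NDUFAB1 by -0.84, SDHD by -0.62 and SDHA by 0.59, the last turning to -0.11 with median scaling. All 3 calls were lost with the covariate (NDUFAB1 -0.21, adjusted p = 0.238, SDHD -0.13, adjusted p = 0.554 and SDHA 0.33, adjusted p = 0.124).

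Cell cycle genes moved in both directions. The share called was 73.7% of D cyclin and inhibitor genes, against 41% of all features. It was below that background for G1/S genes (30%), mitotic genes (30%) and DNA repair genes (18.2%). Of 19 D cyclin and cell cycle inhibitor genes 6 rose and 8 fell, and 1 was higher and 11 lower with median scaling, and 3 were higher and 5 lower with brightness as a covariate. CDKN2D, the inhibitor p19, rose 2.82-fold, from 5.80, 5.73 and 6.13 to 7.26, 7.54 and 7.36 (adjusted p = 2.91e-05), with a difference of 0.98 under the covariate. CDKN2A rose by 0.72 (adjusted p = 0.0192), which did not hold with brightness as a covariate, where its difference was -0.092, nor without F1177A replicate 2 or wild-type replicate 1, and its second probe gave 0.22 (adjusted p = 0.134). CDK4, their target kinase, fell by 0.70 (adjusted p = 0.000305) and was -0.35 with the covariate. Of 30 G1/S and replication genes 4 rose and 5 fell (0 and 25 with median scaling, 0 and 5 with the covariate), with UHRF1 at -0.79, POLA1 at -0.65 and CCNE1, cyclin E1, at -0.61. The CCNE1 call was lost without F1177A replicate 2 or wild-type replicate 3, and its second probe gave -0.35 (adjusted p = 0.0887). Of 30 mitotic genes 8 rose and 1 fell (0 and 10 with median scaling, 3 and 0 with the covariate). KIF20A rose by 0.92 and TOP2A by 0.66, and the gene that fell was CCNB1, cyclin B1 (-0.82). TOP2A and CCNB1 lost their calls with the covariate (0.45, adjusted p = 0.231, and -0.31, adjusted p = 0.24), and TOP2A was 0.0046 with median scaling. GADD45A, a growth arrest gene, rose 2.57-fold (log2 difference 1.36, SE 0.10, adjusted p = 2.1e-08) and led the 4 rises and 0 falls among 22 DNA repair and damage response genes (1 and 15 with median scaling, 5 and 0 with the covariate), followed by ATM (0.55, -0.052 on its second probe, -0.07 with median scaling).

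Chromatin genes near the function of NSD2 were few on the arrays. The shares called were 55.6% of H3K36 genes, 46.7% of other chromatin modifier genes and 36.8% of histone genes, against 41% of all features. Of 9 enzymes and readers of H3K36 methylation 4 fell and 1 rose (7 and 0 with median scaling, 3 and 0 with the covariate). RIOX1, a demethylase, fell 2.14-fold (-1.10, adjusted p = 6.06e-05) and SETMAR, a methyltransferase fused to a transposase, fell 1.5-fold (-0.58, adjusted p = 0.000602). PSIP1, a reader of the mark, rose by 0.61 (adjusted p = 0.0032) and turned to -0.098 with median scaling, and its call was lost with the covariate (0.47, adjusted p = 0.0807). Of 30 Polycomb, DNA methylation and chromatin modifier genes 5 rose and 9 fell (0 and 21 with median scaling, 2 and 6 with the covariate). SMYD3, a lysine methyltransferase, read 8.07, 7.93 and 8.03 with the wild type and 6.81, 6.83 and 6.85 with F1177A (log2 difference -1.18, SE 0.11, adjusted p = 3.51e-07). CBX2 fell 2.15-fold and CBX7, another Polycomb chromobox protein, rose 2.1-fold (adjusted p = 2.57e-05 and 5.22e-06). Of 19 histone genes 4 rose and 3 fell (0 and 14 with median scaling, 0 and 2 with the covariate), with H3-3B at -0.80, H2AC6 at 0.72 and H4C3 at 0.57, and related histone copies can share a probe. H2AC6 and H4C3 lost their calls with the covariate (0.77, adjusted p = 0.0638, and 0.48, adjusted p = 0.14), H2AC6 also without F1177A replicate 3 or wild-type replicate 1, and H4C3 without F1177A replicate 1.

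Plasma cell genes split, with 6 higher and 4 lower of 17 (0 and 10 with median scaling, 4 and 3 with the covariate). The shares called were 58.8% of plasma cell, 50% of MAF programme, 64.7% of NF-kB and 43.8% of BCL2 family genes, against 41% of all features. POU2AF1, a B-cell coactivator, rose 1.8-fold (0.85, adjusted p = 2.75e-07) and MZB1, an immunoglobulin chaperone, 1.7-fold (0.77, adjusted p = 2.39e-05), while JCHAIN, the joining chain of IgA and IgM, fell 1.57-fold (-0.66, adjusted p = 7.54e-05; -0.42 with the covariate). A second MZB1 probe gave 0.33 (adjusted p = 0.203). Among 5 earlier B-cell genes 2 rose, by 0.62 and 0.61, and 1 fell. The gene that fell was SPIB, an ETS factor detected on no F1177A array, at least 1.51-fold lower (adjusted p = 0.000468). Of 10 genes of the MAF programme 2 rose and 3 fell (1 and 7 with median scaling, 2 and 3 with the covariate): MAF itself by 0.76 (0.092 on a much dimmer second probe; 0.50, adjusted p = 0.129 with the covariate) and RND3 by 1.24 were higher, and ITGB7, an integrin of myeloma adhesion, was lower, from 14.38, 14.32 and 14.10 to 13.46, 13.49 and 13.53 (-0.78, adjusted p = 1.1e-06). Of 17 NF-kB genes 5 rose and 6 fell (0 and 10 with median scaling, 3 and 5 with the covariate). After CCL3 these were led by TNFAIP2 (0.94), NFKBIE, an inhibitor of NF-kB (-0.77), and NFKB1 (-0.54; -0.32 with the covariate). In the BCL2 family 3 of 16 rose and 4 fell (1 and 9 with median scaling, 5 and 0 with the covariate), among them BMF, a BH3-only killer (1.09, adjusted p = 2.97e-06), and CASP9 (0.82, adjusted p = 0.000188; 0.48 with the covariate), while CYCS was at least 1.3-fold lower, a call lost with the covariate (-0.41, adjusted p = 0.144) and with centring.

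The remaining lists are given by their counts, beside 41% of all features called, with no test of a difference. They were the ATF4 and amino acid response (6 higher and 2 lower of 29, WARS1 at -0.69), sterol and fatty acid synthesis (4 and 2 of 22, CYP51A1 at -0.65), Wnt receptors and modulators (1 and 4 of 15, WNT10A at -1.27 and FZD7, the only rise, at 0.87), BEX and TCEAL genes (1 and 1 of 8, BEX3 at -0.63 and TCEAL3 at 0.61), tetrahydrobiopterin, urea and one-carbon metabolism (4 and 0 of 16, led by GCHFR), neighbours of NSD2 in 4p16 (2 and 0 of 7, MXD4 at 1.14), S100 proteins and annexins (2 and 3 of 10, S100A4 at 0.96), actin cytoskeleton genes (7 and 9 of 31, TAGLN at 0.88 and TPM1 at -0.71) and cadherins, integrins and junction genes (3 and 6 of 17). WARS1, CYP51A1, FZD7 and S100A4 each went against the larger count of their list. With median scaling more members were lower than higher in each of these 9 lists. WARS1, CYP51A1, FZD7 and TPM1 lost their calls with the covariate (-0.47, -0.21, 0.27 and -0.48, adjusted p = 0.216, 0.497, 0.318 and 0.0635), and BEX3 was -0.39. The CYP51A1 call was also lost without F1177A replicate 3 or wild-type replicate 1, and that of TPM1 with centring. TPM1 was detected on no F1177A array and was at least 1.19-fold lower. Second probes of WARS1 and BEX3 gave -0.37 and -0.075, which did not pass.

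**Figure D4:**
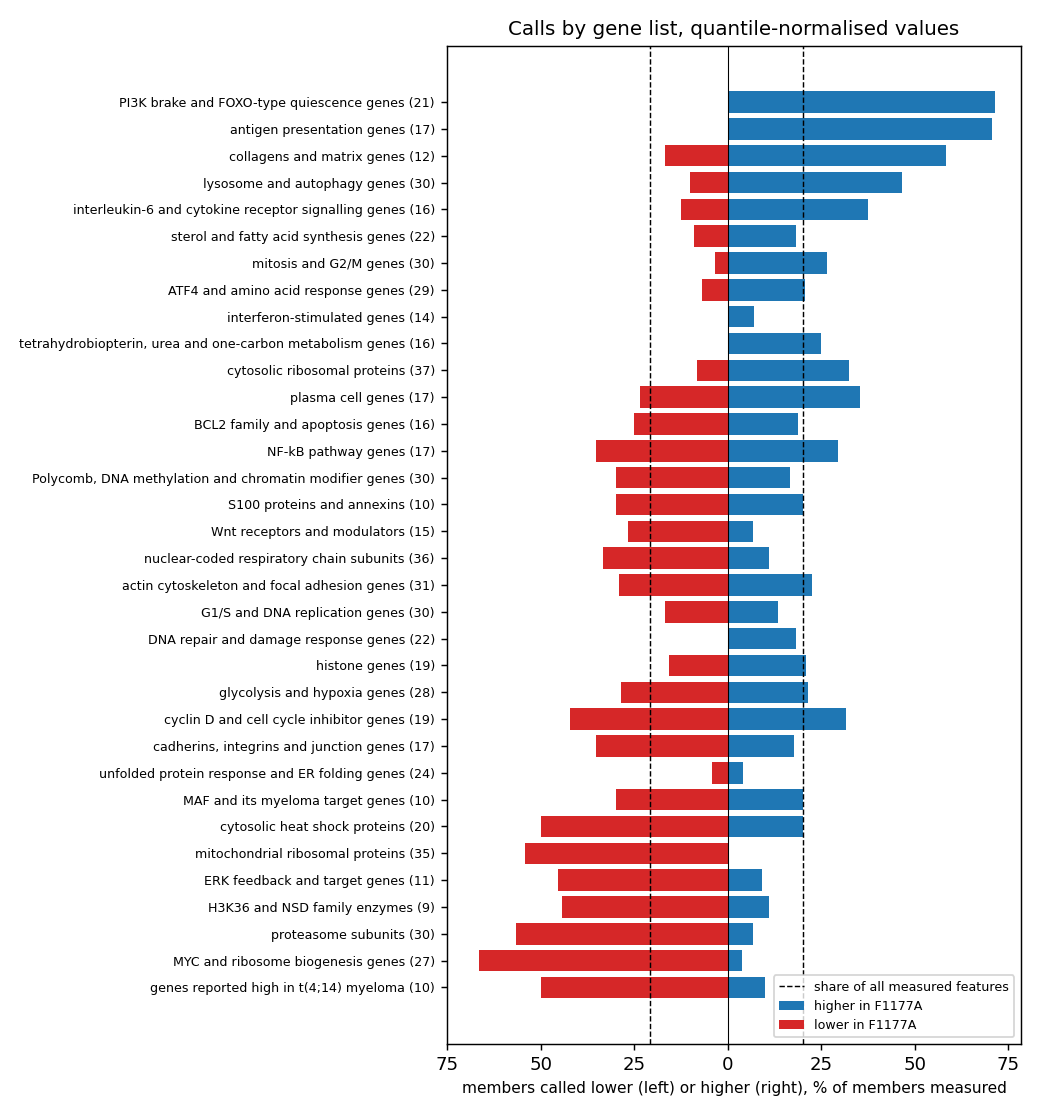
Share of the measured members of each gene list called higher (blue, to the right) or lower (red, to the left) with F1177A in quantile-normalised values, with the number measured in brackets and dashed lines at the shares of all features (20.2% higher, 20.8% lower). Quiescence (15 of 21) and antigen presentation genes (12 of 17) had the largest shares of rises, and MYC and ribosome biogenesis genes (18 of 27) the largest share of falls. The lists were written with earlier results of these data known. With median scaling more members of every list drawn were called lower than higher.

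**Figure D5:**
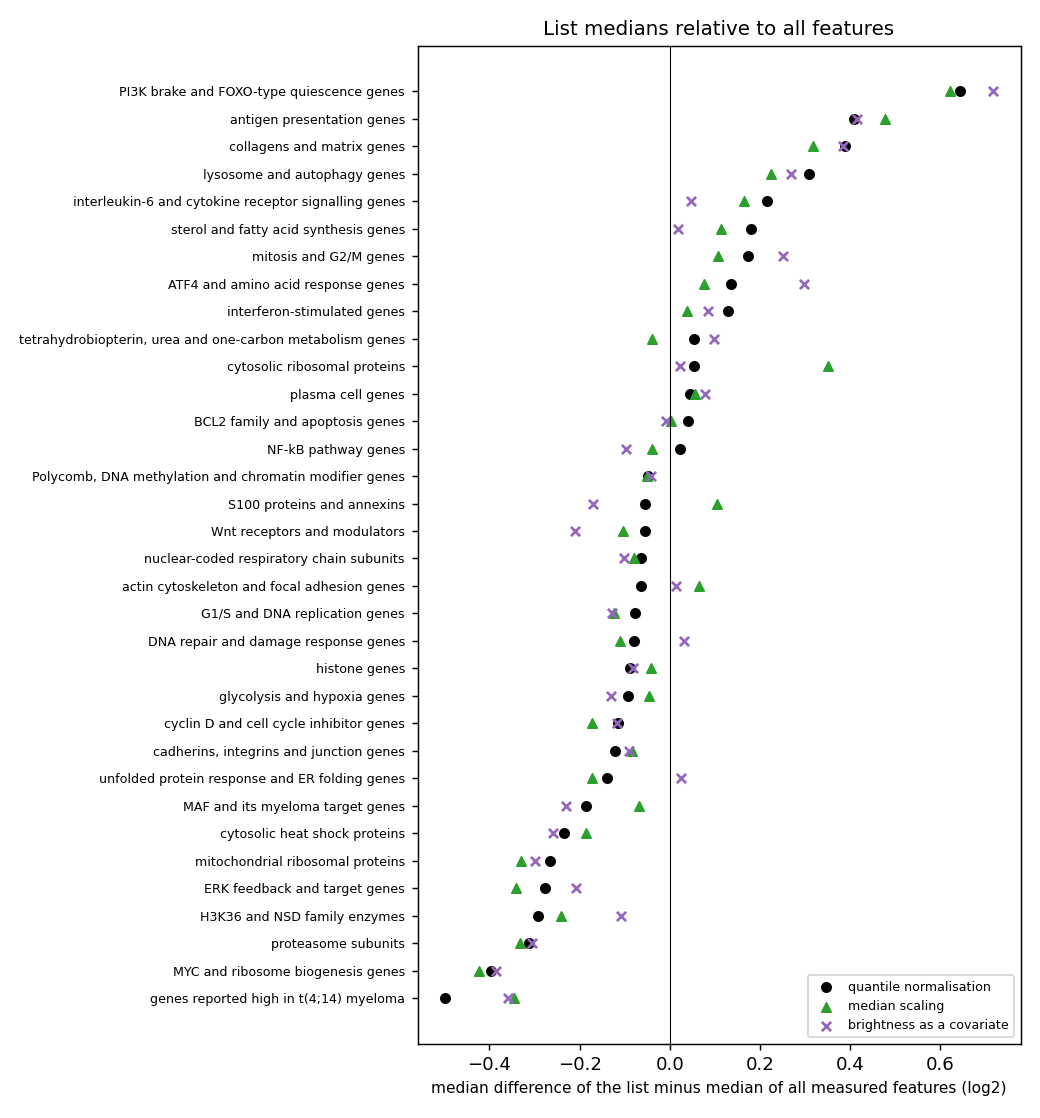
Median difference of each list minus the median of all measured features (log2) under quantile normalisation (circles), median scaling (triangles) and brightness as a covariate (crosses). The lists at both ends kept their side of 0 under the 3 treatments, from 0.64, 0.62 and 0.72 for the quiescence genes to -0.50, -0.35 and -0.36 for the t(4;14) genes, whose median was -0.0057 among features detected on all 18 arrays.

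Detection itself differed between the groups. Among the 9910 features 85 were detected on 3 F1177A and 0 wild-type arrays and 242 on 3 wild-type and 0 F1177A arrays. On average 11460 probes were detected on the F1177A arrays and 11920 on the wild-type arrays, beside the brightness difference given above, and its part in these counts was not tested. Markers of other cell types were mostly absent. Of 15 T and NK cell markers CD247 was detected, of 13 monocyte and granulocyte markers CD68 (0.38, adjusted p = 0.0231; -0.36 on a second, undetected probe; -0.25 with median scaling; 0.15, adjusted p = 0.487 with the covariate), and CD3D, CD14 and MPO were detected on none of the 6 arrays. The CD68 call was also lost without F1177A replicate 1 or 2 or wild-type replicate 1 or 2. Of 16 markers of fibroblasts, endothelium and epithelium, PDGFRB, ACTA2, PECAM1 and EPCAM were detected, their summed intensity, not normalised, being 275.4 to 401.8 with the wild type and 149 to 220.6 with F1177A. After normalisation PDGFRB and ACTA2 read 6.05 and 6.24 with the wild type and 6.21 and 6.43 with F1177A, and PECAM1 5.28 and 5.24. EPCAM, an epithelial adhesion molecule, was lower with F1177A (-0.74, adjusted p = 0.000239) and stood at 4.67 with DSRed.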

How the data were processed

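Biotin-labelled RNA, amplified per the labels' protocols, was hybridised to Illumina bead arrays. The deposited table gives, per the file headers, a non-normalized probe intensity and a detection p-value for each array. Since 31.1% of the deposited intensities are negative, they are background-subtracted values. The submitters' processing notes name GenomeStudio 1.5.4. The authors' series matrix, read as intensity, served as an alternative.

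Of 48803 probes, 27578 have 1 symbol, 13 several and 21212 none in the platform annotation. Background was corrected with limma 3.58.1 (R 4.3.3) by normexp from the detection p-values, offset 16, which understates differences of dim genes. Values were quantile-normalised over 18 arrays and put on the log2 scale. Probes detected on at least 3 of 18 arrays (13336), the brightest per symbol, gave 10954 features. A limma model with a term for each group, 12 residual degrees of freedom and an intensity trend was fitted to all, with two-sided tests and Benjamini-Hochberg adjustment over the 10954 features. A call is an adjusted p under 0.05; all adjusted p-values in the text come from limma. Errors are SE for differences and SD (n = 3) for levels. "At least" folds set the brighter group's mean against the higher of each dim array's lowest detected signal and its own value. The number of arrays limits the precision.

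Members and lists were chosen with earlier results of these data known. Named genes are NSD2, FGFR3, the 12 largest called rises and falls without overlapping arrays, 8 genes each way for wild type against DSRed, and up to 4 called members per list. Arrays with the same replicate number deviated together in each of 3 pairs (correlations of deviations 0.28, 0.19 and 0.22), a pairing seen in the data and not stated in the labels. On simulated data with the means and spreads of these features (200 of 10954 changed), 56.7% of 1.5-fold, 89.6% of 2-fold and 100% of 3-fold changes were recovered. The simulated arrays had no brightness difference, normalisation step or shared deviations, and fewer features changed than were called here. These rates may therefore not hold for the real comparison. The alternatives covered scaling, background, filters, probes, covariates, the replicate block and each array left out.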

Additional observations from a re-analysis of the deposited data

How the results depend on the processing

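The test found 4062 features called between F1177A and wild-type MMSET II, and the count moved by more than 1.5 times with median scaling (6150), with brightness as a covariate (2474) and with brightness and the replicate block together (2232). Leaving out each of the 6 arrays in turn gave 2897 to 3629 calls, the lowest without the first wild-type array. The replicate block alone gave 3910 calls. It changed no call of a gene named here other than that of WFS1. The counts of the comparisons with Y1118A moved as well. MMSET II against Y1118A went from 1924 to 559 with median scaling and to 4302 with array weights. F1177A against Y1118A went from 3781 to 6117 with median scaling, to 5933 with array weights, to 1258 with brightness as a covariate and to 1011 with brightness and the replicate block. With arrays centred on the median of features detected on all 18 arrays, 60.5% of the calls were higher against 49.3%, and 66.4% against 49.7% for F1177A against Y1118A. The cause of these moves was not tested. Centring, the fit without DSRed replicate 3 and the block with brightness were chosen after seeing the data.

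The count of calls of at least 2-fold, 287, was 1719 with median scaling and 117 with offset 50. The 24 largest differences kept direction and call in every alternative run. Of 104 called list genes named by the rule, 50 did so, 37 lost the call or reversed with median scaling and 26 with brightness as a covariate. Reversed with median scaling were NSD2 (-0.31), CA2 (-0.56), PLOD2 (-0.43), BCHE (-0.26), KLF2 (-0.034), FOXO3 (-0.17), RBL2 (-0.15), CDKN1B (-0.25), TWIST1 (-0.13), MYC (-0.28), PSMB10 (-0.32), SDHA (-0.11), ATM (-0.07), PSIP1 (-0.098), CD68 (-0.25) and WFS1 (-0.18). The calls of these named rises were lost with median scaling without a reversal: FGFR3, ASS1, CCNG2, YPEL5, FOXO4, SESN1, TXNIP, PHLPP1, IRS2, PINK1, GABARAPL1, WIPI1, CTSB, HLA-DMA, TAP1, PSMB8, NDRG1, ALDOC, CDKN2A, KIF20A, TOP2A, CBX7, H2AC6, H4C3, CASP9, PIM1, IL15RA, TNFAIP2, MAF, FZD7, COL9A2, LAMA5, S100A4, TCEAL3, MXD4, POU2AF1, MZB1 and IRF1. Cyclic loess reversed CA2 (-0.069) and ADM (0.13), and centring reversed ADM (0.17). Brightness as a covariate reversed HERC5 (0.056) and CDKN2A (-0.092), and with the replicate block added it reversed HERC5 (0.034), CDKN2A (-0.13) and PSMB10 (-0.0099). A block on the chip was not run because neither labels nor headers used here name the chip of an array. Genes near background, such as CCL3 with F1177A, are limited by the arrays' lowest detected signal.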
